A study of Mus musculus with 36 samples.

Results

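The genes of cholesterol synthesis and the other targets of SREBP2, the sterol-sensing transcription factor, were examined in mouse intestinal organoids treated with retinoids or with an RXR antagonist. The members were 28 genes listed by symbol, and all 28 were among the 12652 genes of the table and among the 11361 that passed the filter on low values. By role they were 3 genes that supply acetyl-CoA or acetoacetyl-CoA (Acss2, Acat1, Acat2), 7 of the mevalonate and isoprenoid steps (Hmgcs1, Mvk, Pmvk, Mvd, Idi1, Fdps, Ggps1), 3 from squalene to lanosterol (Fdft1, Sqle, Lss), 9 from lanosterol to cholesterol (Cyp51, Tm7sf2, Lbr, Msmo1, Nsdhl, Hsd17b7, Ebp, Sc5d, Dhcr7), 4 for SREBP2 and its control (Srebf2, Scap, Insig1, Insig2) and 2 linked to sterol transport (Stard4, Tmem97).

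Bulk RNA was sequenced from wild-type organoid cultures of 2 male C57BL/6 littermates aged 8 weeks, with 2 RNA purifications per culture and condition, so that each of 9 groups had 4 libraries and 36 were made in all. Organoids, which are closed epithelial structures grown from intestinal stem cells, were seeded at 50000 cells per well, and 3 wells were pooled for a purification. All cultures first grew in a medium with R-spondin, Noggin, EGF, Wnt3a-conditioned medium, the ROCK inhibitor Y-27632 and the GSK3B inhibitor CHIR99021, and at day 3 the last 3 were withdrawn. The starting group was collected at 0 h with no treatment, and the other groups were collected at 6 h or 24 h after the switch with DMSO (the solvent control), all-trans retinoic acid (atRA) at 10 µM, 9-cis retinoic acid (9cisRA) at 10 µM or an RXR antagonist (RXRi) at 5 µM, the dose unit being written μm in the labels. Every treated group therefore shared the change of medium, and the cultures came from only 2 animals.

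Cholesterol is built from acetyl-CoA through mevalonate, isoprenoid pyrophosphates, squalene and lanosterol, and the enzymes of this route are transcribed together by SREBP2. When membranes are poor in sterol, the escort protein SCAP carries SREBP2 from the endoplasmic reticulum to the Golgi, where it is cut to its active form, and INSIG proteins hold SCAP back when sterol is plentiful. The small intestine both makes and absorbs cholesterol, and RXR is the partner of LXR, the oxysterol receptor that turns on sterol export.

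The values were RPKM, which scale reads by gene length and by library depth, so levels can be set beside each other between genes. Whole reads could be recovered from the RPKM of all 12652 genes, with sums between 19640305 and 30686200 reads per library, and between 431 reads (the lowest library for Ggps1) and 19956 reads (the highest for Hmgcs1) lay behind a member's value. Duplicate libraries of a culture correlated at 0.994 to 0.998 over genes, and the cultures of the 2 mice at 0.992 to 0.997. Differences below are between group means of log2(RPKM + 0.5), tested by limma with the mouse as a block, and a gene was called when the Benjamini-Hochberg adjusted p over all 11361 genes was below 0.05. The 9 intestinal epithelium markers were all present in every group (their summed level ranged from 11349 to 23319 RPKM over the libraries), and of 9 markers of other tissues the 2 in the table, Cd68 and Acta2, summed to 3.73 to 8.21 RPKM. In bulk RNA, fewer cells of a type and less RNA per cell cannot be told apart.

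Promoters were searched for the letters of 3 elements. The RefSeq table (build GRCm38.p6, from 250 bases before to 50 after each gene start) held 23 of the 28 members, with Acat1, Fdps, Fdft1, Sqle and Stard4 missing and both strands were read. The sterol regulatory element TCACNCCAC was found in 1 of 23 members (4.35%) and in 1.44% of the 27025 genes of the table. CCAAT, the box bound by NF-Y, was found in 21 of 23 members (91.3%) and in 41.1% of genes. GGGCGG, the core bound by SP1, was also found in 21 of 23 members (91.3%) and in 38.2% of genes. A CCAAT match shared letters with a GGGCGG match in 0 of the 23 members and with the sterol element in 0. Counted by promoter, since a gene can have several, the 3 motifs were in 1, 21 and 24 of 29 member promoters and in 1.24%, 37.4% and 35.7% of all 32851. Of the members with values in every sample below or with the sterol element, 3 are shown, each from a stretch outside every annotated exon and outside the RefSeq gene. They are written 5′ to 3′ on the strand of the gene, with the sterol regulatory element and each CCAAT, or its reverse complement ATTGG, in capitals. Hmgcs1 is on the plus strand (chr13:119690174-119690262), and its sterol element begins 137 bases before the start. Mvd (chr8:122443423-122443522) and Sc5d (chr9:42264301-42264400) are on the minus strand, and for both the 100 bases before the start are given.
Hmgcs1: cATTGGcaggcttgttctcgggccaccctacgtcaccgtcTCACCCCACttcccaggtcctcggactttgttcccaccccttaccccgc
Mvd: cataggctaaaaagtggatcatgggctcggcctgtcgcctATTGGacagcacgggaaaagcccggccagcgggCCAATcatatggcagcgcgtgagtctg
Sc5d: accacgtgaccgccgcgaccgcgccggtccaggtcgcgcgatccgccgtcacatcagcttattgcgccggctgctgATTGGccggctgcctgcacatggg
CCAAT boxes occurred 2 times in the stretch of Mvd and 1 time in those of Hmgcs1 and Sc5d. A match of these letters is a description of the sequence, not of binding.

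More members, and more of all tested genes, were called at 24 h than at 6 h. With RXRi at 24 h, 19 of 28 were called higher and 5 lower, where 31.1% of all tested genes were called higher and 30.4% lower. With 9cisRA at 24 h, 7 were called higher (24.4% of all genes) and 11 lower (23.5%), and with atRA at 24 h, 9 higher (19.4%) and 4 lower (18.6%). The members' median log2 difference was 0.30 with RXRi, -0.046 with 9cisRA and 0.10 with atRA. The scaling of the libraries bore on the retinoid splits at 24 h. With quantile normalization the members called were 5 higher and 5 lower with atRA (2022 and 2262 of all genes). With 9cisRA they were 4 higher and 12 lower (2538 and 2890 of all genes). With each library scaled to the same RPKM sum they were 4 higher and 7 lower with atRA (1077 and 4206 of all genes). With 9cisRA they were then 3 higher and 18 lower (1273 and 5185 of all genes). That scaling moved the median of all tested genes by -0.12 with atRA and -0.158 with 9cisRA. With RXRi at 24 h the splits were 20 higher and 5 lower with quantile normalization (4248 and 2840 of all genes). They were 18 higher and 5 lower with equal RPKM sums (3464 and 3421 of all genes). At 6 h, 7 were called lower (3.03%) and 2 higher (5.01%) with 9cisRA, 5 lower (14.6%) and 1 higher (10.6%) with RXRi, and 1 in each direction with atRA (2.79% higher, 1.87% lower). The RXRi split at 6 h was 2 higher and 3 lower with equal RPKM sums (1562 and 1343 of all genes). The single atRA call in each direction at 6 h became 0 to 4 calls when 1 library or 1 mouse was left out. It was 0 without mouse 1, 4 without the second DMSO or the first atRA library of mouse 2, and 1 without the first DMSO or second atRA library of mouse 2 or the second atRA library of mouse 1. The medians at 6 h were -0.13, -0.10 and -0.076 for 9cisRA, RXRi and atRA, and the medians of all tested genes at 6 h were within 0.0121 of 0. The 3 compounds were each compared with the same DMSO libraries, so their differences share that control. Of the 28 members, 27 were called in at least 1 of these 6 comparisons, Insig2 was called in all 6, and Ggps1, which makes the geranylgeranyl group for protein prenylation, was called in none (with equal RPKM sums it was lower with 9cisRA at 24 h). The shares of all tested genes called in at least 1 or in all 6 were not counted. RXRi at 24 h alone called 31.1% of all tested genes higher and 30.4% lower.

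**Figure D1:**
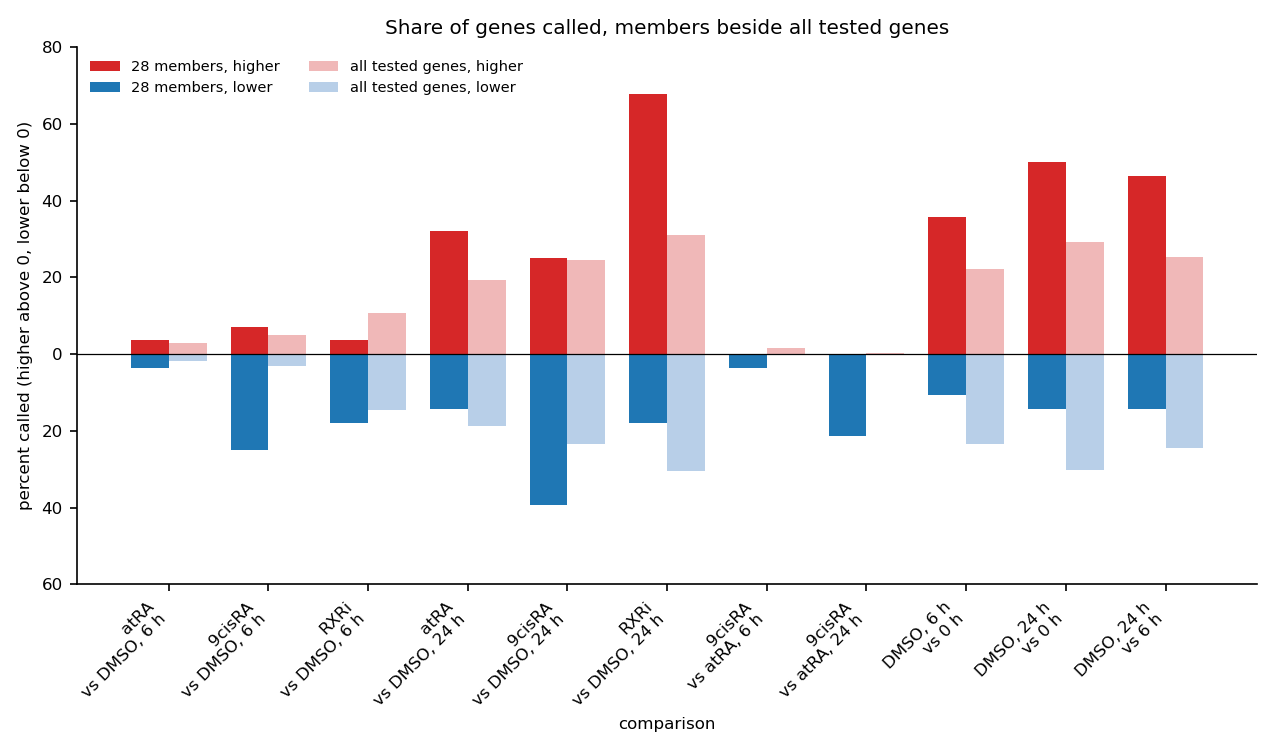
Percent of genes called higher (above 0) or lower (below 0) in each comparison, for the 28 members (dark bars) and all 11361 tested genes (pale bars). With RXRi at 24 h, 19 members were called higher and 5 lower, and in 9cisRA against atRA at 24 h, 6 members were called lower and 0 higher.

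**Figure D2:**
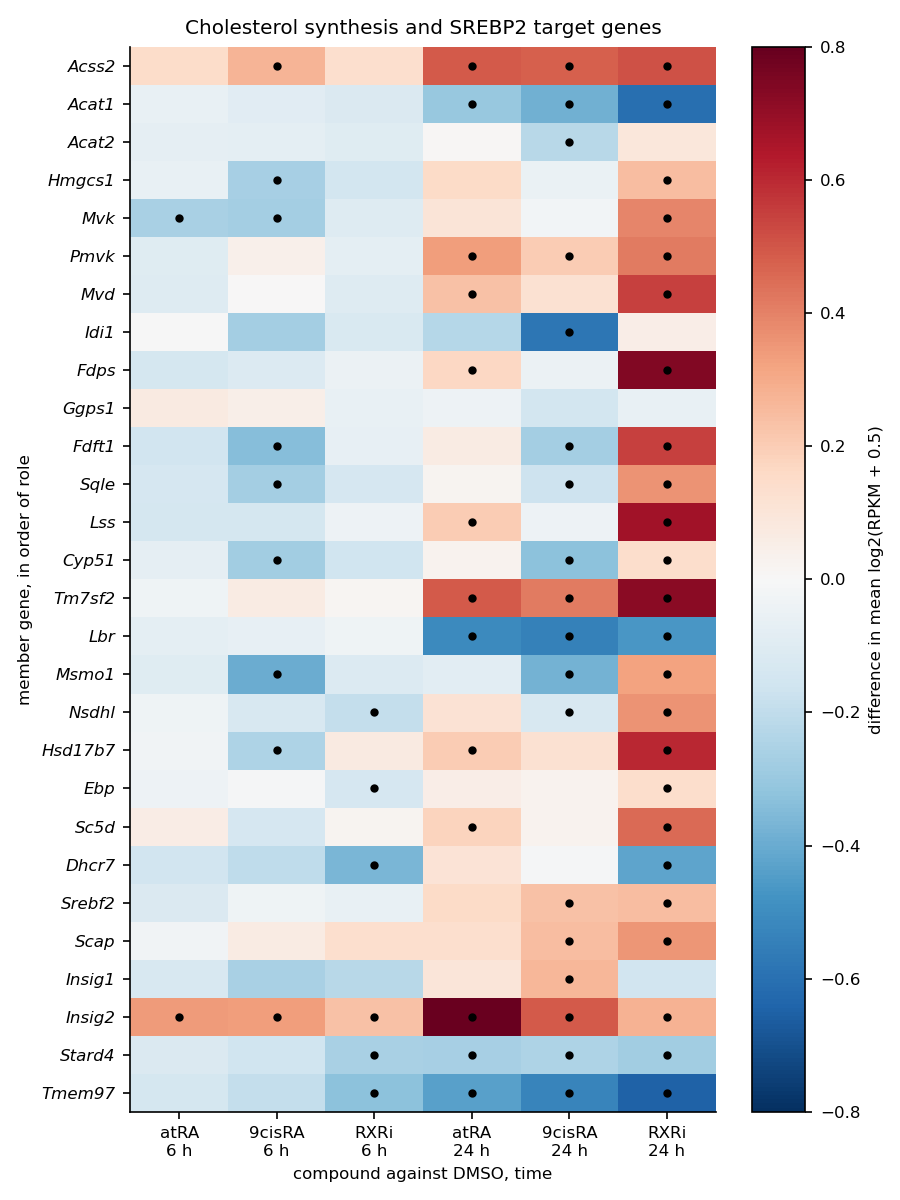
Difference in mean log2(RPKM + 0.5) between each compound and DMSO at 6 h and 24 h, for the 28 members in order of their role. Black dots mark adjusted p under 0.05, red is higher and blue lower than DMSO, and the colour scale runs from -0.8 to 0.8. The RXRi column at 24 h is mostly red, with Acat1, Lbr, Dhcr7, Stard4 and Tmem97 in blue with dots.

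Of the genes at the entry of the route, Acss2 rose and Acat1 fell at 24 h under every compound. Acss2, the enzyme that makes acetyl-CoA from acetate, had 7.58, 7.48, 7.76 and 8.17 RPKM at 24 h in DMSO (the 2 libraries of mouse 1, then those of mouse 2). It had 11, 10.8, 11.1 and 11.4 RPKM with atRA, 10.9, 11.2, 10.8 and 11.1 RPKM with 9cisRA and 11.1, 10.5, 11.8 and 11.6 RPKM with RXRi. All 12 treated libraries lay above all 4 of DMSO, and the 3 treated groups overlapped each other. The log2 differences were 0.49 (SE 0.048, adjusted p = 8.18e-06), 0.48 (SE 0.048, adjusted p = 6.07e-06) and 0.51 (SE 0.048, adjusted p = 8.28e-07). At 6 h, Acss2 had 4.82, 4.53, 4.9 and 4.72 RPKM in DMSO and 5.62, 5.64, 5.71 and 6.37 RPKM with 9cisRA, again without overlap, a difference of 0.27 (SE 0.048, adjusted p = 0.00297). All libraries with atRA (5.11 to 5.59 RPKM) and RXRi (4.96 to 5.61 RPKM) at 6 h were above DMSO too. Their differences of 0.15 and 0.13 were not called, except with the 36 libraries as samples or, for RXRi, with equal RPKM sums. The mean with 9cisRA at 6 h (5.84 RPKM) was near that of the 0 h group (5.86 RPKM), since Acss2 fell by 0.28 in DMSO over the first 6 h. Of its exonic bases, 9.1% are shared with genes on the opposite strand (Ggt7, Gss and Acss2os). Gss, the glutathione synthetase gene, changed by -0.15 with RXRi at 24 h (adjusted p = 0.00967) and by 0.22 with atRA and 0.24 with 9cisRA (adjusted p = 0.00208 and 0.000759).

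Acat1 and Acat2 both encode enzymes that join acetyl-CoA units, Acat1 in mitochondria, where it also serves ketone body metabolism, and Acat2 in the cytosol at the first step towards mevalonate. Acat1 had 43.1, 44.7, 39 and 39.4 RPKM at 24 h in DMSO and 25.6, 27.1, 28.2 and 27.6 RPKM with RXRi. It had 35, 33.9, 32.1 and 33.3 RPKM with atRA and 33.7, 31.3, 29 and 32.9 RPKM with 9cisRA. Every treated library was below every DMSO library, and the RXRi libraries were below all of the others. The differences were -0.60 (SE 0.058, adjusted p = 1.01e-06) with RXRi, -0.30 (SE 0.058, adjusted p = 0.00144) with atRA and -0.38 (SE 0.058, adjusted p = 0.000169) with 9cisRA. Acat2 had 86.7, 90, 88.4 and 85.1 RPKM in DMSO, 72.5, 74.9, 73.8 and 79 RPKM with 9cisRA and 94.5, 93.1, 94.9 and 91.3 RPKM with RXRi at 24 h. The 9cisRA libraries were all lower and Acat2 fell by 0.22 (adjusted p = 0.00222), whereas the RXRi libraries were all higher but the difference of 0.094 (SE 0.048, adjusted p = 0.108) was not called, except with quantile normalization or with the 36 libraries as samples. At 24 h with atRA Acat2 ranged over 85 to 89.7 RPKM, across the DMSO values. Acat2 reads cannot be fully told from those of a close copy: 65.6% of its transcript has a stretch at 95% identity or more in Acat3 or Tcp1. Of these, Tcp1 fell with 9cisRA at 24 h (-0.26, adjusted p = 0.000596), and Acat3 rose with RXRi (0.16, adjusted p = 0.00627).

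Among the 7 mevalonate and isoprenoid genes, 5 were called higher with RXRi at 24 h and none lower, with a median difference of 0.39. With atRA, 3 were called higher and none lower, and with 9cisRA 1 was called in each direction. Fdps, which makes farnesyl pyrophosphate, was the most abundant member at 24 h. It had 190, 185, 184 and 180 RPKM in DMSO at 24 h and 304, 311, 315 and 307 RPKM with RXRi. No other group reached these levels, the highest library elsewhere being 214 RPKM with atRA at 24 h. The difference was 0.74 (SE 0.043, adjusted p = 5.49e-09), or 1.67-fold, and the means were 185 ± 4.16 RPKM and 309 ± 2.9 RPKM (SD between 2 mice). With atRA at 24 h Fdps had 205, 204, 206 and 214 RPKM, all above DMSO, a rise of 0.17 (SE 0.043, adjusted p = 0.00787), and with 9cisRA it had 175, 185, 179 and 175 RPKM, which overlapped DMSO (-0.049 (SE 0.043, adjusted p = 0.365)). For Fdps, 26.7% of exonic bases are shared with an annotated gene on the same strand, and 77.1% of its transcript has a near-identical stretch in pseudogenes, so its RPKM may hold or lack reads of these copies.

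Mvd and Pmvk act in a row on phosphorylated mevalonate. Mvd, whose promoter is printed above, had 72.6, 66.9, 74.3 and 75.1 RPKM at 24 h in DMSO and 104, 104, 107 and 106 RPKM with RXRi, with no overlap and a rise of 0.54 (SE 0.055, adjusted p = 1.57e-06). It had 84.2, 83, 85.6 and 87.6 RPKM with atRA (0.24 (SE 0.055, adjusted p = 0.00469)) and 70.9, 80.7, 85.8 and 78 RPKM with 9cisRA (0.12 (SE 0.055, adjusted p = 0.0797)). The 9cisRA libraries spread over the DMSO and the atRA values. Pmvk had 58.9, 54, 57.1 and 60.2 RPKM in DMSO and 75.8, 76, 79.8 and 76.3 RPKM with RXRi. It had 73.9, 69.6, 72.6 and 74.7 RPKM with atRA and 64, 68.1, 66.4 and 66.8 RPKM with 9cisRA, so that all 12 treated libraries exceeded DMSO. Pmvk rose by 0.42 with RXRi, 0.34 with atRA and 0.20 with 9cisRA (adjusted p = 9.75e-07, 4.06e-05 and 0.00112). At 6 h neither Mvd nor Pmvk was called with any compound. With equal RPKM sums the rises of Mvd (0.10, adjusted p = 0.111) and Fdps (0.036, adjusted p = 0.541) with atRA and of Pmvk with 9cisRA (0.031, adjusted p = 0.613) lost their call, and the 7 genes of these steps then stood at 1 higher and 1 lower with atRA and 0 higher and 5 lower with 9cisRA. Quantile normalization gave 1 higher and 1 lower and 0 higher and 2 lower. Of all genes, equal RPKM sums called 1077 higher and 4206 lower with atRA, and 1273 and 5185 with 9cisRA. Quantile normalization called 2022 and 2262 with atRA, and 2538 and 2890 with 9cisRA.

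The remaining isoprenoid genes were more varied. Hmgcs1, the synthase that makes the precursor of mevalonate and the only one of the 23 with the sterol element, fell with 9cisRA at 6 h, from 132 ± 14.5 RPKM to 109 ± 8.63 RPKM (-0.27 (SE 0.06, adjusted p = 0.0141)). It rose with RXRi at 24 h, from 131 ± 6.69 RPKM to 155 ± 1.64 RPKM (0.25 (SE 0.06, adjusted p = 0.00287)). Mvk, the mevalonate kinase, was lower at 6 h with both atRA (-0.26 (SE 0.067, adjusted p = 0.0432)) and 9cisRA (-0.27 (SE 0.067, adjusted p = 0.0253)), and higher with RXRi at 24 h (0.39 (SE 0.067, adjusted p = 0.000198)). Idi1, which turns isopentenyl into dimethylallyl pyrophosphate, fell with 9cisRA at 24 h from 80.6 ± 3.31 RPKM to 54 ± 3.75 RPKM, a difference of -0.58 (SE 0.091, adjusted p = 0.000212). With atRA its 4 libraries were also all below DMSO, but the difference of -0.23 was not called (adjusted p = 0.0634), although it was with quantile normalization, equal RPKM sums, only the groups compared or the 36 libraries as samples (adjusted p = 0.0337, 0.0114, 0.00288 and 0.0166). Ggps1 stayed between 5.80 and 7.33 RPKM as a group mean. Without the mouse block the 6 h calls of Hmgcs1 with 9cisRA (adjusted p = 0.121) and of Mvk with 9cisRA and atRA (adjusted p = 0.0592 and 0.106) were lost, and without mouse 1 Mvk differed by -0.14 and -0.14.

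All 3 genes from squalene to lanosterol rose with RXRi at 24 h, and 2 of 3 fell with 9cisRA at both times. Fdft1, the squalene synthase that commits farnesyl pyrophosphate to sterols, had 66, 69.8, 65.1 and 67.2 RPKM in DMSO at 6 h and 53.9, 52.8, 53.5 and 51.3 RPKM with 9cisRA. The 9cisRA libraries were at the level of the 0 h group, which had 53.1, 50.7, 53 and 52.1 RPKM. At 6 h with 9cisRA the difference from DMSO was -0.34 (SE 0.043, adjusted p = 0.000221). At 24 h Fdft1 had 66.6, 66.3, 62.6 and 63.8 RPKM in DMSO, 52.7, 54, 53.1 and 55 RPKM with 9cisRA and 90.5, 97.8, 96.1 and 96 RPKM with RXRi. The 3 groups did not overlap, and the differences were -0.27 (SE 0.043, adjusted p = 0.000233) with 9cisRA and 0.55 (SE 0.043, adjusted p = 1.17e-07) with RXRi. With atRA Fdft1 had 65.6, 67.4, 67.6 and 71.2 RPKM at 24 h, which overlapped DMSO (0.068 (SE 0.043, adjusted p = 0.231)). Its exons overlap those of Ctsb, a lysosomal protease gene on the opposite strand, over 18.3% of its exonic bases. Ctsb differed by -0.021 with RXRi at 24 h (adjusted p = 0.745), by 0.048 with 9cisRA at 6 h (adjusted p = 0.678) and by 0.23 with 9cisRA at 24 h (adjusted p = 0.00294), the last in the opposite direction to Fdft1.

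Lss, which closes the rings to give lanosterol, had 32, 32.8, 33.5 and 33.9 RPKM at 24 h in DMSO and 52.9, 52.9, 52.3 and 53.6 RPKM with RXRi. It had 38.3, 38.3, 38.4 and 37.4 RPKM with atRA and 30.7, 31.2, 33.5 and 32.9 RPKM with 9cisRA. RXRi stood highest, atRA next and without overlap with either neighbour, while 9cisRA overlapped DMSO. The differences from DMSO were 0.67 (SE 0.047, adjusted p = 4.09e-08) with RXRi, 0.20 (SE 0.047, adjusted p = 0.00447) with atRA and -0.042 (SE 0.047, adjusted p = 0.481) with 9cisRA. Sqle, the squalene epoxidase, fell with 9cisRA at 6 h (-0.27 (SE 0.061, adjusted p = 0.0152)) and at 24 h (-0.17 (SE 0.061, adjusted p = 0.0398)), and rose with RXRi at 24 h from 99.8 ± 3.13 RPKM to 128 ± 4.75 RPKM (0.36 (SE 0.061, adjusted p = 0.000197)). The rise of Lss with atRA was not called with equal RPKM sums (0.074, adjusted p = 0.252). The 9cisRA calls of Sqle did not hold without the mouse block (adjusted p = 0.0867 at 6 h and 0.11 at 24 h), and without mouse 2 its difference at 24 h was -0.066.

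Of the 9 genes from lanosterol to cholesterol, 7 were called higher and 2 lower with RXRi at 24 h, against 1 higher and 4 lower with 9cisRA and 3 higher and 1 lower with atRA. Tm7sf2 and Lbr encode enzymes that reduce the same sterol double bond after the Cyp51 step, and Lbr is also a receptor of the inner nuclear membrane for lamin B. They moved in opposite directions with each compound at 24 h. Tm7sf2 had 22, 23, 23.5 and 22 RPKM in DMSO, 30.9, 31.4, 31.2 and 34.6 RPKM with atRA and 27.2, 31, 34 and 29.5 RPKM with 9cisRA. With RXRi it had 35.8, 39.2, 38.3 and 37.3 RPKM. All 12 treated libraries were above DMSO, and the rise was 0.72 (SE 0.062, adjusted p = 3.41e-07) with RXRi, 0.49 (SE 0.062, adjusted p = 6.57e-05) with atRA and 0.41 (SE 0.062, adjusted p = 0.000159) with 9cisRA. Lbr had 33.7, 35.1, 34.2 and 35 RPKM in DMSO, 24.5, 22.8, 25.1 and 24.2 RPKM with atRA and 23.8, 24.1, 21.5 and 24.9 RPKM with 9cisRA. With RXRi it had 26.5, 23.8, 25.6 and 23.4 RPKM. All 12 treated libraries were below DMSO and the 3 treated groups overlapped, with differences of -0.51 (SE 0.056, adjusted p = 2.13e-05), -0.54 (SE 0.056, adjusted p = 7.14e-06) and -0.47 (SE 0.056, adjusted p = 7.94e-06) for atRA, 9cisRA and RXRi. In DMSO alone between 0 h and 24 h, Tm7sf2 rose from 17 ± 0.387 RPKM to 22.6 ± 0.215 RPKM and Lbr fell from 45.5 ± 3.17 RPKM to 34.5 ± 0.138 RPKM. At 6 h, neither was called with any compound. The exons of Tm7sf2 share 12.1% of their bases with Vps51 on the same strand, and Vps51 differed by 0.22 with RXRi at 24 h (adjusted p = 0.0192). Lbr shares 10.7% of its exonic bases with Dnah14 and Gm26004.

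The list of 8 dividing-cell markers fell with Lbr: 7 of 8 were called lower with atRA, 7 with 9cisRA and 8 with RXRi at 24 h, with medians of -0.55, -0.61 and -0.47. Their summed level was 421 to 455 RPKM in DMSO at 24 h, 341 to 346 with atRA, 308 to 343 with 9cisRA and 302 to 321 with RXRi, and no marker of the list was at 0. The part of cell division in the fall of Lbr was not tested.

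Sc5d, the desaturase of a late sterol step, had 74.2, 74.2, 78.5 and 77.3 RPKM at 24 h in DMSO and 102, 103, 105 and 106 RPKM with RXRi, without overlap, a rise of 0.45 (SE 0.051, adjusted p = 4.88e-06). With atRA it had 84.3, 82.6, 87.6 and 90.7 RPKM, also all above DMSO (0.18 (SE 0.051, adjusted p = 0.0144)), and with 9cisRA 78.8, 79.3, 72.3 and 80.2 RPKM, which overlapped DMSO (0.029 (SE 0.051, adjusted p = 0.662)). Msmo1, Nsdhl and Hsd17b7 act together to remove the methyl groups beside the sterol hydroxyl, and Cyp51 removes the first methyl group of lanosterol. With 9cisRA at 24 h, Msmo1 differed by -0.38, Cyp51 by -0.33 and Nsdhl by -0.13, all called lower, and with RXRi they differed by 0.32, 0.14 and 0.36, all called higher. The call of Cyp51 with RXRi was close to the threshold (adjusted p = 0.0489), and Cyp51 shares 3.8% of its exonic bases with Akap9 on the opposite strand. Hsd17b7 rose with RXRi from 17.9 ± 0.886 RPKM to 27.5 ± 1.34 RPKM (0.60 (SE 0.071, adjusted p = 6.8e-06)) and with atRA (0.20 (SE 0.071, adjusted p = 0.0393)). At 6 h with 9cisRA, Msmo1 fell by 0.40, Cyp51 by 0.28 and Hsd17b7 by 0.25 (adjusted p = 0.00151, 0.00918 and 0.049). Hsd17b7 lost its call in 6 of 12 alternative settings and in 4 of 8 fits without a library. With equal RPKM sums the atRA calls of Sc5d (0.049, adjusted p = 0.511) and Hsd17b7 (0.073, adjusted p = 0.506) were lost. The 9 genes of these steps were then 1 higher and 2 lower with atRA (1077 and 4206 of all genes). Quantile normalization gave 1 higher and 1 lower (2022 and 2262 of all genes). Nsdhl lost its 9cisRA call without the mouse block (adjusted p = 0.0871), as did Cyp51 its RXRi call (adjusted p = 0.063).

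Ebp, the sterol isomerase, and Dhcr7, the reductase of the last step of the route through dehydrocholesterol, were called with RXRi and with no other compound. Ebp was also called lower with 9cisRA at 24 h with equal RPKM sums, and Dhcr7 with 9cisRA at 6 h in a fit of only the groups compared. Ebp was lower at 6 h (-0.13 (SE 0.044, adjusted p = 0.0441)) and higher at 24 h (0.14 (SE 0.044, adjusted p = 0.0136)). Dhcr7 was lower at 6 h (-0.36 (SE 0.1, adjusted p = 0.0215)) and at 24 h, where its mean was 31.8 ± 3.23 RPKM against 42.7 ± 4.73 RPKM in DMSO (-0.42 (SE 0.1, adjusted p = 0.00349)). The 4 RXRi libraries of Dhcr7 were all below DMSO at both times. Dhcr7 and Lbr were the 2 members of the lanosterol-to-cholesterol steps that were lower with RXRi at 24 h. Ebp lost its 6 h call with quantile normalization (adjusted p = 0.193) and without the mouse block (adjusted p = 0.0721), and its 24 h call without mouse 2 (adjusted p = 0.178).

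**Figure D3:**
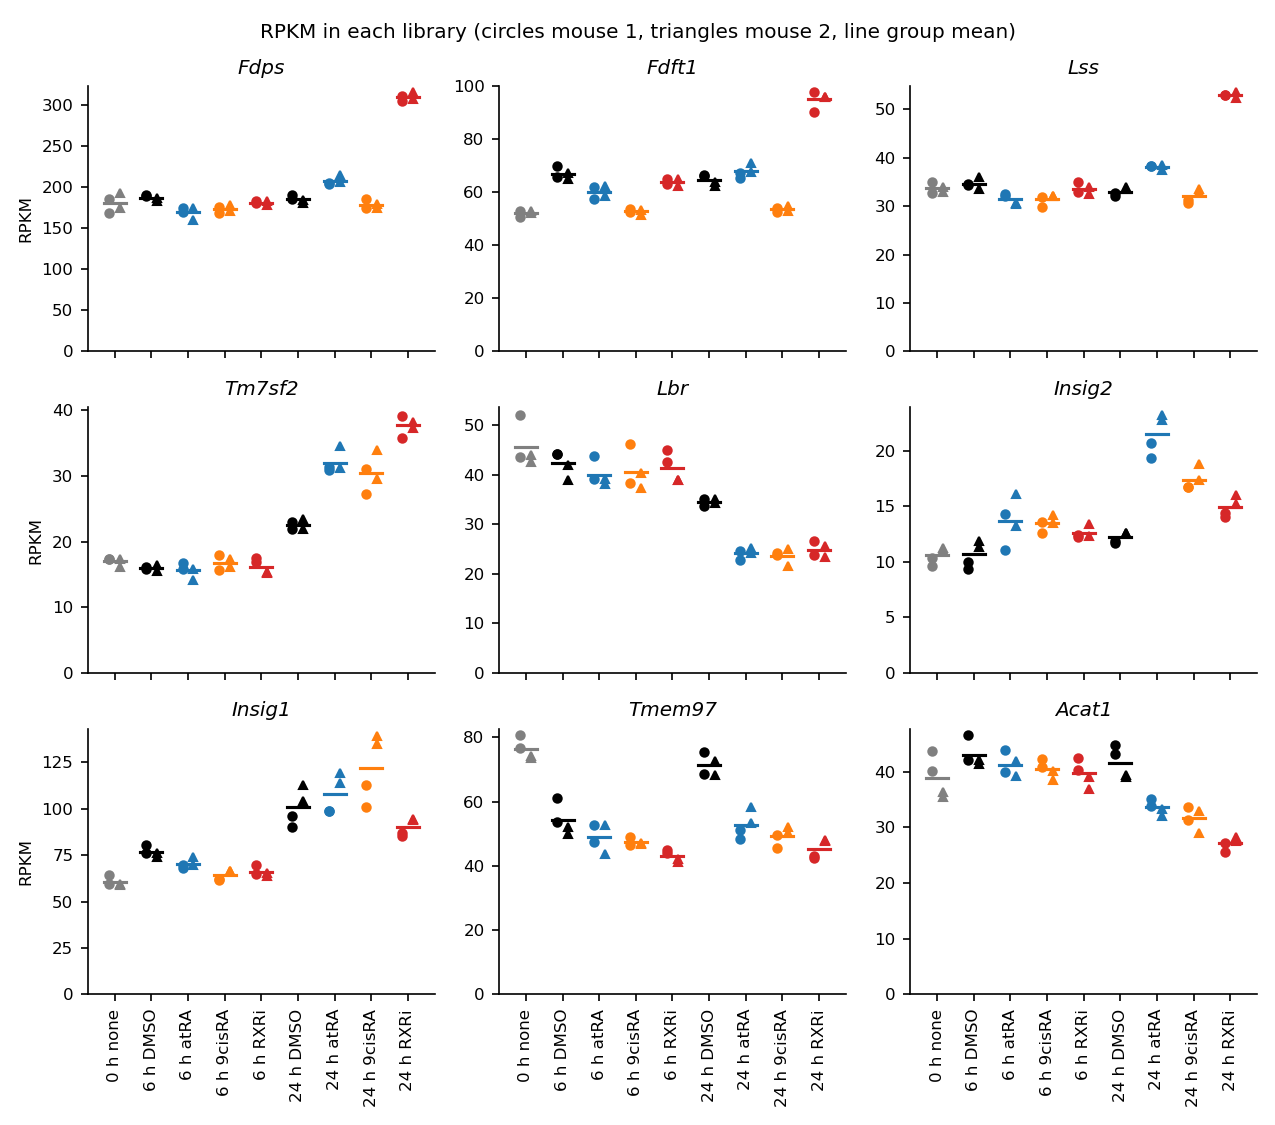
RPKM of 9 members in every library, by group, with circles for mouse 1, triangles for mouse 2 and a line at the group mean. Fdps, Fdft1 and Lss stand highest with RXRi at 24 h, Insig2 with atRA at 24 h (19.3 to 23.2 RPKM), and Lbr is lower with every compound than in DMSO at 24 h.

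Of the 4 genes of SREBP2 and its control, Insig2 was called higher under every compound at both times, and no gene of this group was called lower with a compound. In other settings Insig1 was: with 9cisRA at 6 h under quantile normalization or equal RPKM sums, and with 9cisRA at 6 h and RXRi at both times when only the groups compared were fitted or the 36 libraries were taken as samples. INSIG proteins keep SCAP in the endoplasmic reticulum, and Insig1 is itself a target of SREBP2. Insig2 had 11.9, 11.7, 12.6 and 12.6 RPKM at 24 h in DMSO, 20.7, 19.3, 22.8 and 23.2 RPKM with atRA and 16.7, 16.7, 17.4 and 18.8 RPKM with 9cisRA. With RXRi it had 14.4, 14, 16 and 15.2 RPKM. The 4 groups did not overlap, in the order atRA, 9cisRA, RXRi and DMSO, and the differences from DMSO were 0.79 (SE 0.053, adjusted p = 4.8e-07), 0.49 (SE 0.053, adjusted p = 1.14e-05) and 0.28 (SE 0.053, adjusted p = 0.000513). At 6 h Insig2 had 9.39, 9.94, 11.3 and 11.9 RPKM in DMSO and 11.1, 14.3, 13.2 and 16.1 RPKM with atRA, and the lowest atRA library lay within the DMSO range. It had 12.6, 13.6, 14.2 and 13.5 RPKM with 9cisRA and 12.2, 12.4, 13.4 and 12.3 RPKM with RXRi at 6 h, all above DMSO. The differences at 6 h were 0.34 (SE 0.053, adjusted p = 0.00252), 0.33 (SE 0.053, adjusted p = 0.00151) and 0.24 (SE 0.053, adjusted p = 0.00536), and all 3 missed the threshold without the mouse block.

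Insig1 did not follow Insig2. It had 76.4, 80.6, 74.1 and 76.2 RPKM in DMSO at 6 h, 69.6, 67.8, 69.6 and 73.9 RPKM with atRA and 61.6, 62.3, 66.5 and 66.5 RPKM with 9cisRA. With RXRi at 6 h it had 69.5, 64.8, 65.5 and 63.9 RPKM. All 12 treated libraries were below DMSO, yet none of the differences (-0.13, -0.26 and -0.22) was called (adjusted p = 0.449, 0.109 and 0.0949). At 24 h Insig1 had 90.3, 96.3, 104 and 113 RPKM in DMSO, 113, 101, 139 and 135 RPKM with 9cisRA and 86.7, 85.2, 94.7 and 93.7 RPKM with RXRi. Mouse 2 was higher than mouse 1 in each of these groups. Over the 2 mice 9cisRA and RXRi each overlapped DMSO but not each other, and within each mouse both 9cisRA libraries lay above and both RXRi libraries below those of DMSO. The rise with 9cisRA was 0.27 (SE 0.09, adjusted p = 0.0261), and the difference with RXRi was -0.16 (SE 0.09, adjusted p = 0.149). With atRA the libraries had 98.8, 98.8, 114 and 119 RPKM (0.10 (SE 0.09, adjusted p = 0.428)).

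Srebf2, which encodes SREBP2, and Scap were called higher at 24 h with 9cisRA (0.23 (SE 0.068, adjusted p = 0.0134) and 0.25 (SE 0.066, adjusted p = 0.00809)) and with RXRi (0.24 (SE 0.068, adjusted p = 0.00689) and 0.35 (SE 0.066, adjusted p = 0.00039)). With atRA at 24 h they differed by 0.15 and 0.13, without a call. The group means of Srebf2 lay between 54.1 and 64.1 RPKM throughout and those of Scap between 20.2 and 26.5 RPKM. With equal RPKM sums the 9cisRA calls at 24 h of Srebf2 (0.059, adjusted p = 0.456), Scap (0.075, adjusted p = 0.335) and Insig1 (0.094, adjusted p = 0.307) were lost, and without the mouse block that of Insig1 was (adjusted p = 0.0683). RNA levels of Srebf2 do not measure the cut, active form of the protein.

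The 2 genes linked to sterol transport were called lower with every compound at 24 h and with RXRi at 6 h. Tmem97, a membrane protein of the endoplasmic reticulum that binds the lysosomal sterol transporter NPC1, had 68.7, 75.6, 68.2 and 72.6 RPKM at 24 h in DMSO and 48.5, 51.1, 53.5 and 58.2 RPKM with atRA. It had 49.7, 45.7, 50.1 and 52 RPKM with 9cisRA and 43.2, 42.6, 47.7 and 48.1 RPKM with RXRi. All 12 treated libraries were below DMSO, and the differences were -0.43 (SE 0.075, adjusted p = 0.000657), -0.53 (SE 0.075, adjusted p = 0.000101) and -0.65 (SE 0.075, adjusted p = 5.75e-06) for atRA, 9cisRA and RXRi. At 6 h Tmem97 had 53.6, 61.3, 52.1 and 50 RPKM in DMSO and 44.1, 44.9, 41.2 and 42.1 RPKM with RXRi, again apart (-0.33 (SE 0.075, adjusted p = 0.00569)). In DMSO it was 76.3 ± 3.37 RPKM at 0 h, 54.2 ± 4.53 RPKM at 6 h and 71.3 ± 1.21 RPKM at 24 h. A stretch covering 38.5% of its transcript is nearly identical to Gm5809. Stard4, a soluble sterol carrier, differed at 24 h by -0.27 with atRA, -0.24 with 9cisRA and -0.28 with RXRi (adjusted p = 0.0202, 0.0238 and 0.00842). The Stard4 call with RXRi at 6 h was lost with quantile normalization, equal RPKM sums or no mouse block (adjusted p = 0.0613, 0.0657 and 0.0632). It was also lost without mouse 2, and without the second RXRi library of mouse 1 or the first DMSO library of mouse 2. The Stard4 differences at 24 h were smaller without mouse 2, at -0.14 with atRA, -0.10 with 9cisRA and -0.12 with RXRi.

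The isomers atRA and 9cisRA differ in the geometry of a double bond of the side chain and were given at the same dose and times, so they were compared directly, as 1 pair at each time, with p adjusted over all 11361 genes. Each member called between them was lower with 9cisRA. At 24 h, 6 of 28 members were called lower with 9cisRA than with atRA and none higher, where 0.167% of all genes were called lower and 0.299% higher. The median difference over the members was -0.12. In 13 of 28 members all 4 libraries with 9cisRA were below all 4 with atRA, against 2.98% of all tested genes. In none were all 4 above, against 4.05% of all tested genes. At 6 h only Msmo1 was called, and it was lower (0.167% of all genes lower and 1.55% higher), with 63.2, 57.5, 63.8 and 62.7 RPKM with 9cisRA and 70.8, 73.6, 76.1 and 85.3 RPKM with atRA, a difference of -0.30 (SE 0.064, adjusted p = 0.0361). In 8 of 28 members all 4 libraries were lower at 6 h, against 2.67% of genes. In 1 (Acss2) all 4 were higher, near the 4.84% of all genes, and the median difference was -0.026. The Msmo1 call was lost without the mouse block (adjusted p = 0.106) and without the second atRA library of mouse 2. There were 5 members called without the first atRA library of mouse 2 and 2 without the first of mouse 1. Fdft1 was called lower as well at 6 h under each of 3 other scalings of the libraries.

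The called members at 24 h were spread over the route. Fdft1 had 52.7, 54, 53.1 and 55 RPKM with 9cisRA and 65.6, 67.4, 67.6 and 71.2 RPKM with atRA, a difference of -0.34 (SE 0.043, adjusted p = 0.00374) with a 95% interval of -0.43 to -0.245. Cyp51 had 97.3, 94.8, 82.3 and 97.8 RPKM and 118, 117, 119 and 122 RPKM, a difference of -0.36 (SE 0.058, adjusted p = 0.0182). In both genes every 9cisRA library was below every atRA library, and both were lower in each mouse. Insig2 differed by -0.30 (SE 0.053, adjusted p = 0.0359), Lss by -0.25 (SE 0.047, adjusted p = 0.0423), Nsdhl by -0.24 (SE 0.046, adjusted p = 0.0412) and Fdps by -0.22 (SE 0.043, adjusted p = 0.0468), the last 3 close to the threshold. Apart from Fdft1, the 5 calls did not hold at an adjusted p of 0.01, and without the mouse block 1 of the 6 remained. Fdps and Lss also lost their calls with quantile normalization, Fdps, Lss, Nsdhl and Insig2 with no intensity trend, and Fdps with only the groups compared. Without mouse 2, 3 were called, and 4 to 7 without any single library.

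For other members the isomers were not told apart, within limits that the intervals set. At 24 h the 95% interval of the difference was -0.117 to 0.091 for Acss2, -0.157 to 0.0848 for Lbr, -0.212 to 0.0576 for Tm7sf2, -0.116 to 0.0747 for Ebp and -0.153 to 0.196 for Stard4. Idi1 (-0.35, interval -0.547 to -0.154), Msmo1 (-0.29, interval -0.432 to -0.155) and Acat2 (-0.23, interval -0.335 to -0.127) were among the members below 0 over their whole interval. They missed the threshold over all genes (adjusted p = 0.142, 0.0743 and 0.0617). With the 36 libraries as samples all 3 were called, as were Hmgcs1 (-0.20) and Sqle (-0.19). Acat2 was also called with quantile normalization or equal RPKM sums, and Idi1 and Msmo1 with only the groups compared. Hmgcs1, Sqle, Sc5d and Pmvk were not called in the main fit, but all their 9cisRA libraries were below all those with atRA. RXRi was given at another dose, and its values are set beside those of the isomers above without a test of the difference.

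**Figure D4:**
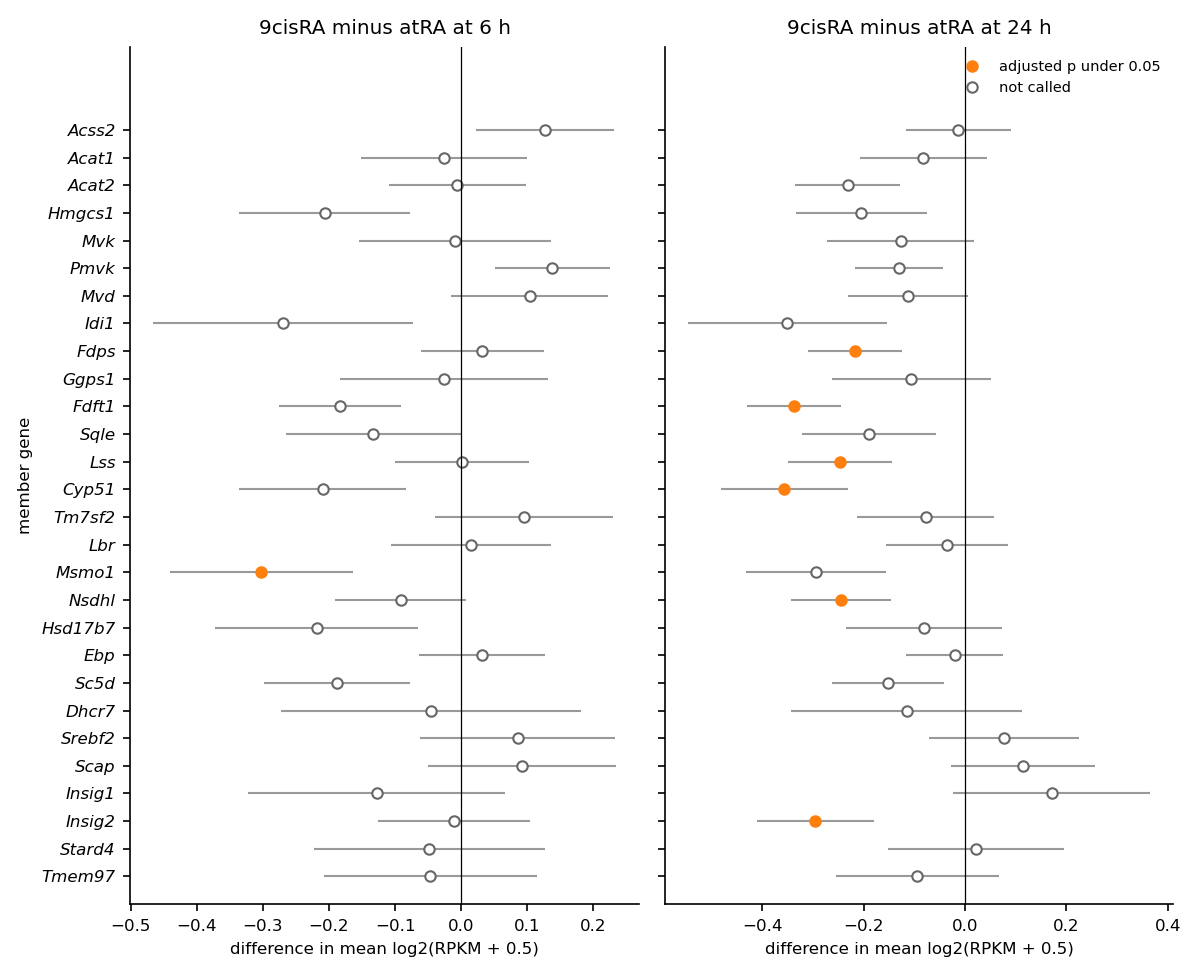
Difference in mean log2(RPKM + 0.5) between 9cisRA and atRA at 6 h (left) and 24 h (right) for the 28 members, with 95% intervals from limma. Filled points passed an adjusted p of 0.05. Msmo1 is filled at 6 h, and Fdps, Fdft1, Lss, Cyp51, Nsdhl and Insig2 are filled at 24 h, all to the left of 0.

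In DMSO more members were called higher than lower after the change of medium, a balance that depended on the scaling for 24 h against 6 h. At 6 h against 0 h, 10 were called higher (22.3% of all genes) and 3 lower (23.4%). At 24 h against 0 h, 14 were higher (29.2%) and 4 lower (30.3%), and at 24 h against 6 h, 13 were higher (25.4%) and 4 lower (24.5%). The medians were 0.037, 0.18 and 0.069. With quantile normalization the splits were 12 higher and 6 lower at 24 h against 0 h (2681 and 4385 of all genes). At 24 h against 6 h they were 10 higher and 10 lower (2323 and 3933 of all genes). With equal RPKM sums they were 9 higher and 8 lower at 24 h against 0 h (2303 and 4854 of all genes). At 24 h against 6 h they were 7 higher and 12 lower (1935 and 4730 of all genes). The median of all genes moved by -0.113 and -0.118, so that the balance between 6 h and 24 h turned with the scaling. The early risers included Hmgcs1 (0.50 (SE 0.06, adjusted p = 2.57e-05)), Msmo1 (0.39 (SE 0.064, adjusted p = 0.000294)) and Fdft1 (0.36 (SE 0.043, adjusted p = 2.72e-05)), and these 3 differed by -0.0057, 0.19 and -0.048 from 6 h to 24 h, of which only Msmo1 was called, a call that was lost with quantile normalization and equal RPKM sums, where Fdft1 was called lower. Insig1 was 60.6 ± 1.94 RPKM at 0 h, 76.8 ± 2.38 RPKM at 6 h and 101 ± 10.5 RPKM at 24 h, a rise of 0.72 (SE 0.09, adjusted p = 1.61e-05) over 24 h. Sc5d was 50.6 ± 3.01 RPKM at 0 h, 63.3 ± 3.78 RPKM at 6 h and 76.1 ± 2.63 RPKM at 24 h (0.58 (SE 0.051, adjusted p = 6.65e-07)). Those that fell over 24 h were Lbr (-0.39), Scap (-0.32), Acat2 (-0.25) and Pmvk (-0.14).

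Cell type markers moved over the same interval. All 8 enterocyte markers rose in DMSO between 0 h and 24 h (median 2.66), and their summed level went from between 1326 and 1945 RPKM at 0 h to between 9033 and 14900 RPKM at 24 h. With RXRi at 24 h all 8 were lower than in DMSO (median -4.05), at 2824 to 4628 RPKM, while with atRA the sum was 17726 to 25369 RPKM and with 9cisRA 21751 to 29022 RPKM. Other cell types moved as well. In DMSO over 24 h all 6 goblet and all 6 Paneth cell markers rose (medians 1.63 and 0.98), all 5 tested enteroendocrine markers fell (median -1.45), and of 5 stem cell markers 1 rose and 3 fell. With RXRi at 24 h all 6 Paneth markers were lower than in DMSO (median -1.08, summed level 81.6 to 255 against 315 to 469 RPKM). Of the 5 stem cell markers 5 were lower with atRA, 4 with 9cisRA and 3 with RXRi, which had 1 higher (2 with quantile normalization), and their summed levels were 28.4 to 35.2, 28.1 to 30.8 and 30.6 to 35.1 RPKM, against 49.1 to 57.7 RPKM in DMSO (6 markers with the 1 below the filter). No marker of these lists was at 0 in a group. The RXRi libraries at 24 h held the highest levels of Fdps, Fdft1 and Lss. Their enterocyte sum was below DMSO at 24 h but above every library at 0 h or 6 h (616 to 2787 RPKM). Such a sum rests mostly on the most abundant markers. The median difference of the 8 markers was -4.05 with RXRi against DMSO at 24 h, and 2.66 in DMSO at 24 h against 0 h. In the groups at 0 h and 6 h the Fdps means were 170 to 187 RPKM. The goblet sum at 24 h was 422 to 635 RPKM with RXRi, 424 to 471 with atRA, 418 to 550 with 9cisRA and 358 to 408 in DMSO. The epithelium sum was 22175 to 23319 RPKM with RXRi and 11349 to 12937 in DMSO. The part of cell composition in the members' values was not tested.

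The effect of each compound was also compared between 6 h and 24 h. With RXRi, the difference from DMSO shifted upward for 18 members (18.6% of all genes) and downward for 3 (16.5%), with a median change of 0.34. With atRA it shifted upward for 9 (10.0%) and downward for 1 (7.11%), with a median of 0.19, and with 9cisRA it shifted upward for 3 (10.1%) and downward for 3 (7.90%), with a median of 0.10. These splits also moved with the scaling. With equal RPKM sums they were 3 higher and 3 lower for atRA (391 and 2324 of all genes). They were 1 higher and 5 lower for 9cisRA (411 and 2668 of all genes). The median of all genes shifted by -0.137 for atRA and -0.145 for 9cisRA. For RXRi the split was 17 higher and 3 lower (1669 and 2124 of all genes). The number of members whose 9cisRA effect changed was 10 without the first 24 h 9cisRA library of mouse 1. The widest change was that of Fdps with RXRi, from -0.046 at 6 h to 0.74 at 24 h (0.79 (SE 0.061, adjusted p = 6.84e-07) for the change). Lss went from -0.043 to 0.67 and Mvd from -0.10 to 0.54. With 9cisRA, Fdft1 did not show such a change: it was -0.34 at 6 h and -0.27 at 24 h, and the change of 0.07 (SE 0.06, adjusted p = 0.448) had a 95% interval of -0.0611 to 0.2. For Insig1 the 9cisRA effect went from -0.26 to 0.27, a change of 0.52 (SE 0.13, adjusted p = 0.0138).

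Neighbouring pathways were described as lists. Their counts stand beside the shares of all tested genes given above for each comparison, 5.01% higher and 3.03% lower with 9cisRA at 6 h, 2.79% and 1.87% with atRA at 6 h, 10.6% and 14.6% with RXRi at 6 h, 24.4% and 23.5% with 9cisRA at 24 h, 19.4% and 18.6% with atRA at 24 h and 31.1% and 30.4% with RXRi at 24 h. The 6 tested genes of sterol export and LXR were called higher in 3 cases with 9cisRA at 6 h and in 5 with 9cisRA at 24 h (medians 0.48 and 0.88), and none was lower. With RXRi 4 were lower and 1 higher at both times (medians -0.71 and -1.54), and with atRA 1 was higher at 6 h and 5 at 24 h (medians 0.12 and 0.44). Abcg5 and Abcg8, which together form the pump that returns sterols to the gut lumen, differed by -3.53 (adjusted p = 1.85e-12) and -3.46 (adjusted p = 2.55e-12) with RXRi at 24 h, and by 1.28 (adjusted p = 2.05e-07) and 1.31 (adjusted p = 2.14e-07) with 9cisRA. Nr1h3, the gene of LXR alpha, differed by -2.24 (adjusted p = 7.8e-09) with RXRi and 0.12 (adjusted p = 0.474) with 9cisRA at 24 h. In the list of SREBP processing, Srebf1, the gene of SREBP1, which drives fatty acid synthesis, had 42.8, 44, 43.8 and 42.4 RPKM at 24 h in DMSO and 112, 122, 138 and 112 RPKM with 9cisRA. With RXRi it had 31.1, 30.4, 32.4 and 32.7 RPKM. The groups did not overlap, and the differences were 1.47 (adjusted p = 4.44e-07) and -0.44 (adjusted p = 0.00245), the opposite order to that of Fdft1. Of the 8 genes of this list, 4 were called higher and 1 lower with 9cisRA at 24 h, and 1 higher and 4 lower with RXRi, the calls including Sec24d (0.52 and -0.48).

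Of 11 genes of fatty acid synthesis, 7 were called higher with 9cisRA at 6 h and none lower, the comparison in which 7 members were called lower. At 24 h, 6 of 11 were higher and 1 lower with 9cisRA, 6 and 0 with atRA, and 5 and 5 with RXRi. Scd1, a fatty acid desaturase, differed by 1.98 (adjusted p = 1.39e-08) with 9cisRA and -1.30 (adjusted p = 7.01e-08) with RXRi at 24 h, Scd2 by 0.75 (adjusted p = 1.91e-07) and -0.43 (adjusted p = 4.46e-06), and Me1, the malic enzyme, by 1.12 (adjusted p = 1.36e-08) and 0.68 (adjusted p = 1.39e-07). Of 10 genes of sterol uptake and esterification, 6 were higher and 4 lower with RXRi at 24 h, including Vldlr, a lipoprotein receptor (2.83 (adjusted p = 7.14e-11)), Lipa, the lysosomal lipase (-0.94 (adjusted p = 1.14e-09)) and Soat2, which esterifies cholesterol (-1.61 (adjusted p = 6.37e-09)). In that list 4 were higher with 9cisRA at 24 h and 3 with atRA, and none was lower. Of 9 genes on the isoprenoid branches, 3 were higher and 2 lower with RXRi at 24 h, near the shares of all genes (31.1% and 30.4%), with Pdss1 and Pdss2, which build the side chain of ubiquinone, at -1.38 (adjusted p = 8.18e-10) and -0.84 (adjusted p = 5.57e-08), and Rabggta, a prenyl transferase subunit, at 0.39 (adjusted p = 0.000272). Of the 5 genes of NF-Y and SP factors, none was called higher with a compound and 3 were lower with 9cisRA at 24 h, led by Nfyb (-0.30 (adjusted p = 0.000536)), Sp3 (-0.25 (adjusted p = 0.00647)) and Sp1 (-0.17 (adjusted p = 0.0273)). Scaled to equal RPKM sums, the 9cisRA splits at 24 h were 4 higher and 3 lower for fatty acid synthesis, 2 higher and 2 lower for uptake and esterification and 2 higher and 3 lower for SREBP processing. Of all genes, 1273 were higher and 5185 lower with 9cisRA at 24 h under that scaling. With median-of-ratios scaling the isoprenoid branches were 1 higher and 2 lower with RXRi at 24 h (3428 and 3535 of all genes).

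Over the 18 mouse-by-group values, each centred on its mouse, the mean standardized profile of the members was highest with RXRi at 24 h (1.13 and 1.18 in the 2 mice) and next with atRA at 24 h (0.512 and 0.571). It was lowest at 6 h, with 9cisRA in mouse 1 (-0.639, and -0.522 in mouse 2) and with RXRi in mouse 2 (-0.558, and -0.401 in mouse 1). The Pearson correlation of single members with this profile ran from 0.963 for Nsdhl and 0.932 for Cyp51 to -0.738 for Lbr and -0.745 for Acat1, and these values are descriptive since the members make the profile. Outside the list, the genes most like it over the same 18 values were Bag1 (0.94), Degs1 (0.925), Fut2 (0.925), Rnf181 (0.914), Cyp27a1 (0.913), Wars (0.912), Tspan8 (0.91) and Bcas1 (0.905). Each of the 18 values was the mean of its own 2 libraries, and all but those of the 0 h group came after the change of medium.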

How the data were processed

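RNA-seq of 36 libraries was used as the RPKM table that the authors deposited, with 12652 genes. Per the submitters' processing notes, bcl2fastq 2.17, STAR 2.5.2b and genome build mm10 were used. The read counter, its use of strand and the annotation are not given in the sources used here, so reads of overlapping genes on opposite strands may not have been separated. All table columns matched a labelled sample (0 columns did not), and 36 samples fell into 9 groups by their labels.

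Whole reads were recovered from the steps of the RPKM values within a tolerance of 0.05 reads, for 100.0% of genes, and were used for depth only. Genes with at least 1 RPKM in at least 4 libraries were tested (11361). RPKM were transformed as log2(RPKM + 0.5), duplicate libraries were averaged per mouse and group to 18 values, and group means with the mouse as a block were fitted with limma 3.58.1 (R 4.3.3, empirical Bayes with an intensity trend, 8 residual and 5.01 prior degrees of freedom) for 14 comparisons. A pseudocount of 0.5 makes fold changes of low genes smaller than on the RPKM scale. P-values were adjusted by Benjamini-Hochberg over all tested genes with a threshold of 0.05, and the fit was tested on simulated data. The block removes the overall difference between the 2 mice, which were littermates. P-values therefore measure how far the group differences varied between the cultures of these 2 mice, pooled over the 9 groups.

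The mouse was used as the block because same-numbered samples came from cultures of the same animal. Over pairs of groups the difference between the mice correlated with a median r of 0.441 (0.0372 to 0.662), and the difference between duplicate numbers with a median r of -0.0485 (-0.293 to 0.525), so duplicate numbers did not pair libraries. Promoters were searched for 3 motifs on both strands. The 12 members with the smallest p in the 6 comparisons with DMSO are given by library, as are the pairs Insig1 and Insig2, Tm7sf2 and Lbr, and Acat1 and Acat2. Msmo1 and Cyp51 are also given by library between the isomers, chosen after their values were seen. Up to 3 genes per pathway list (by smallest p) and the 8 genes most like the members are named. Gss, Ctsb, Vps51, Akap9, Acat3 and Tcp1 are named because they overlap or resemble members. The members and lists were chosen with earlier results of these data known. Alternatives were tried for pseudocount, filter, scaling, block, duplicates, variance trend, samples in the fit, threshold, and leaving out mice or libraries. In fits without a mouse, the duplicates of the other mouse's culture were taken as samples. Calls in those fits therefore measure the spread between duplicates of 1 culture, not between animals.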

Additional observations from a re-analysis of the deposited data

Results flagged for a closer look

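Of 108 sets of 4 libraries (12 members in 9 groups), 11 held 1 library far from the other 3 by Dixon's criterion, where chance flags about 1 in 20 (5.4 of 108). At 0 h these were the lowest library of Tm7sf2 (16.2 RPKM) and the highest of Lbr (52.0 RPKM). At 6 h the highest was apart for Acat1 in DMSO (46.6 RPKM), Lbr with atRA (43.8 RPKM), Insig2 with RXRi (13.4 RPKM), and Acss2 (6.37 RPKM) and Mvd (74.6 RPKM) with 9cisRA, where the lowest library of Lss (29.8 RPKM) was apart too. At 24 h they were the highest of Pmvk with RXRi (79.8 RPKM) and of Tm7sf2 with atRA (34.6 RPKM), and the lowest of Lss with atRA (37.4 RPKM).

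In 24 cases the effect of a compound on 1 of these 12 members differed between 6 h and 24 h, by limma's test of the change itself with adjustment over all genes. The 12 were named for small p-values in the same comparisons, and of all tested genes the effect shifted upward in 10.0% and downward in 7.11% with atRA, 10.1% and 7.90% with 9cisRA and 18.6% and 16.5% with RXRi. With atRA the change of the log2 difference was 0.35 for Acss2, 0.43 for Pmvk, 0.34 for Mvd, 0.31 for Fdps, 0.22 for Fdft1, 0.34 for Lss, 0.52 for Tm7sf2, -0.43 for Lbr and 0.45 for Insig2. With 9cisRA it was -0.30 for Acat1, 0.35 for Tm7sf2, -0.48 for Lbr and -0.34 for Tmem97. With RXRi it was 0.37 for Acss2, -0.49 for Acat1, 0.49 for Pmvk, 0.65 for Mvd, 0.79 for Fdps, 0.62 for Fdft1, 0.71 for Lss, 0.70 for Tm7sf2, -0.43 for Lbr, 0.43 for Sc5d and -0.32 for Tmem97. With atRA, the calls of Mvd and Fdft1 were lost with quantile normalization and equal RPKM sums, and those of Acss2, Fdps and Lss with equal RPKM sums, as was that of Tm7sf2 with 9cisRA.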

How the results depend on the processing

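Of 164 calls of members over the 14 comparisons, 164 were kept with a pseudocount of 0.1 or 1, 163 with no filter, 164 with a mean of at least 5 RPKM, 164 with 36 libraries as samples, 159 with median-of-ratios scaling, 151 with no intensity trend, 149 with only the groups compared, 145 with quantile normalization, 130 with equal RPKM sums, 130 without the mouse as replicate block, 126 without mouse 1 and 141 without mouse 2. Without a mouse, the 2 libraries of the other mouse's culture were the samples in each group, so those counts rest on 1 animal. The 1 reversal was Stard4 in DMSO at 24 h against 0 h without mouse 2 (-0.014, against 0.44 without mouse 1). Fewer members were called at an adjusted p of 0.01: 1 with atRA, 5 with 9cisRA and 3 with RXRi at 6 h, 0 and 1 between the isomers at 6 h and 24 h, 11 in DMSO at 24 h against 6 h and 1 for the change of the 9cisRA effect. With no replicate block the counts were 0, 4 and 3 for the 3 compounds at 6 h, 0 and 1 between the isomers and 2 for the change with 9cisRA. With 36 libraries as samples they were 6, 16 and 11 at 6 h, 7 and 11 between the isomers and 12 for that change (6, 16, 11, 7, 11 and 11 with the duplicate number in the replicate block), which treats duplicates of a culture as independent. With atRA at 6 h, 1 was called with median-of-ratios scaling and 1 with no intensity trend. Between the isomers at 6 h, 2 were called with no filter, a mean of at least 5 RPKM or any of the 3 scalings, 0 with no trend and 5 with only the groups compared, and at 24 h 2 with no trend. Equal RPKM sums gave 6 for the change with atRA, and only the groups compared gave 3 for the change with 9cisRA. Leaving out 1 mouse or library gave 0 to 4 with atRA, 6 to 11 with 9cisRA and 5 to 9 with RXRi at 6 h, and 11 to 14, 15 to 19 and 22 to 24 at 24 h. It gave 0 to 5 and 3 to 7 between the isomers at 6 h and 24 h, 11 to 15, 16 to 18 and 12 to 17 in DMSO, and 6 to 12, 4 to 10 and 18 to 22 for the changes with atRA, 9cisRA and RXRi. The counts given here under other settings are of members alone and are not set beside the shares of all tested genes under those settings. A change of the members can therefore not be told from a change of all genes here. The causes of these shifts were not tested. Where a library was left out, its duplicate stood alone for that mouse. At least 431 reads lay behind a member's value in each library.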
